A study of Homo sapiens with 32 samples.

Results

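The clustered histone genes are the human genes whose symbols in the deposited annotation begin with HIST1H, HIST2H, HIST3H or HIST4H and whose loci lie on primary chromosomes. By this rule 70 of the 23073 genes in the deposited table were taken: 6 genes for H1, 17 for H2A, 18 for H2B, 14 for H3 and 15 for H4, with 55 in the HIST1 cluster, 11 in HIST2, 3 in HIST3 and 1 in HIST4. Another 11 rows with such symbols lie off the primary chromosomes, are at 0 FPKM in every library and were not used.

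RNA was sequenced from 32 cultures of 2 human acute myeloid leukaemia lines, Kasumi-1 and SKNO-1, both with the fusion of RUNX1 and RUNX1T1. Cultures received DMSO (0.1%), the irreversible KDM1A inhibitor RN-1, the reversible inhibitor GSK690 or its isomer GSK690*, which the series calls inactive, for 24 or 72 h, with 2 biological replicates per group. KDM1A removes methyl groups from lysines of histone H3, and the series asks what its inhibition changes in these cells. RN-1, GSK690 and GSK690* were each given at 1 uM per the labels. No genotype differs between groups of a line, and each model is 1 established cell line. Kasumi-1 was grown with 20% fetal calf serum, and SKNO-1 with 10% serum and 10 ng/mL GM-CSF, so that line and medium cannot be told apart. For the later SKNO-1 cultures the titles give 72 h and the protocol gives 4 days, and the titles are followed here.

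Most clustered histone genes are switched on together when DNA is replicated, and supply the core histones H2A, H2B, H3 and H4 of the nucleosome and the linker histone H1. Their mRNAs usually end in a conserved stem-loop that SLBP binds in place of a poly(A) tail, and NPAT, at histone locus bodies, drives their transcription. Some members, among them HIST1H2AC, HIST1H2BD, HIST1H2BK, HIST2H2BE and HIST1H1C, are also known to give polyadenylated mRNA in cells that have left the cycle. Whether the libraries were selected for poly(A) RNA is not given in the sources used here, and its part in the levels below was not tested.

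The start regions of 6 members are shown first because their changes carry the results: 1 H1, 1 H2A, 3 H2B and 1 H4 gene. The sequences are the 250 bases before the start in RefSeq (GRCh38.p14), read 5′ to 3′ on the gene's strand, and a RefSeq entry was matched for 61 of the 70 members and for all 19 that were tested. Capitals mark every match, on either strand, to the octamer ATGCAAAT that POU2F1 binds in H2B promoters, to the CCAAT box bound by NF-Y, and to the TATA box TATAAA, and matches on the 2 strands may overlap. The windows are HIST1H1C at chr6:26056471-26056720 (minus strand), HIST1H2AC at chr6:26123922-26124171 (plus), HIST1H2BD at chr6:26157871-26158120 (plus), HIST1H2BK at chr6:27146859-27147108 (minus), HIST2H2BE at chr1:149886683-149886932 (minus) and HIST2H4A at chr1:149832407-149832656 (plus).
HIST1H1C: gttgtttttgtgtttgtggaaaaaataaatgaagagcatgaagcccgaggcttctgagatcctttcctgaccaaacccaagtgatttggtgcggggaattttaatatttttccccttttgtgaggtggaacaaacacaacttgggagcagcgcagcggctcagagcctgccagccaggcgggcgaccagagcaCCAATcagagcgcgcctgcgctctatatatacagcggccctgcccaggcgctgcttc
HIST1H2AC: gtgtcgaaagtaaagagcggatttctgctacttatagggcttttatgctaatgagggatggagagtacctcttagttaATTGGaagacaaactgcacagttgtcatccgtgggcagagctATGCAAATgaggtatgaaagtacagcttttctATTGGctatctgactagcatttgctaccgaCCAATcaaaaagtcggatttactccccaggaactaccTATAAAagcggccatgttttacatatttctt
HIST1H2BD: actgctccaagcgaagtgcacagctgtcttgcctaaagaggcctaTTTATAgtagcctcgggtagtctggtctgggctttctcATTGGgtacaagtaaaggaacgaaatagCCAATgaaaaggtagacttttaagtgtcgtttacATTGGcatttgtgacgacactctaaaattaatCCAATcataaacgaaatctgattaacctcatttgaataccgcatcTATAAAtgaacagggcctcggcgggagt
HIST1H2BK: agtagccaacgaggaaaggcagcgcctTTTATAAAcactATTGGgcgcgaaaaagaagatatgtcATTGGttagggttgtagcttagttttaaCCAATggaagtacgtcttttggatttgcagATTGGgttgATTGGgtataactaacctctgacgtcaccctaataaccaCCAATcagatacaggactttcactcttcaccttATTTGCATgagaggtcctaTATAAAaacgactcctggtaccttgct
HIST2H2BE: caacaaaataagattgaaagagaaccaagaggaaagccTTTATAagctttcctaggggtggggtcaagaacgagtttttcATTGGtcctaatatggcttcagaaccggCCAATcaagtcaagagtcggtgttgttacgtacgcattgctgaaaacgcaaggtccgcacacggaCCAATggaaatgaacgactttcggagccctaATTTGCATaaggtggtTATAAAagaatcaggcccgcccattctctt
HIST2H4A: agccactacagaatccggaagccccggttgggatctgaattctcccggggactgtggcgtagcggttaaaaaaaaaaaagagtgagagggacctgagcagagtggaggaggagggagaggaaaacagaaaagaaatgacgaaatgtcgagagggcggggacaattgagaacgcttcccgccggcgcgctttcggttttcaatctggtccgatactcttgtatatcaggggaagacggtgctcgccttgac
HIST1H2AC, HIST1H2BK and HIST2H2BE each hold 1 octamer, and HIST1H1C, HIST1H2BD and HIST2H4A hold none. CCAAT boxes number 6 in HIST1H2BK, 4 in HIST1H2BD, 3 in HIST1H2AC and in HIST2H2BE and 1 in HIST1H1C, and HIST2H4A has none of the 3 motifs.

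Over the matched members the motifs divided by histone type. The octamer was present in 11 of 16 H2A windows (68.8%) and 10 of 14 H2B windows (71.4%), in 1 of 12 H3 windows and in none of 6 H1 and 13 H4 windows, against 1.63% of 35116 RefSeq promoters of the same length. That H3 window, of HIST1H3D, has the same coordinates as the window of HIST1H2AD, so it is 1 stretch of DNA counted under both H3 and H2A. In the same way 9 pairs of an H2A and an H2B gene start back to back, 194 to 248 bases apart, and their windows overlap. A match in the shared stretch is counted under both types, so the H2A and H2B shares are not independent. The CCAAT box was in every matched H1, H2A, H2B and H3 window and in 3 of 13 H4 windows, against 32% of RefSeq promoters. TATAAA was in 41 of 61 members (67.2%) against 10.7%. Between members that rose in at least 1 set of line and time and tested members that rose in none, the octamer stood in 6 of 13 and 2 of 6 windows. HIST2H2BE is in the first group and HIST2H2AC in the second, and their windows overlap, as do those of HIST1H2AC and HIST1H2BC. The 13 also include HIST4H4 and HIST1H2BN, which entered the comparisons only through inhibitor libraries. These 2 counts are therefore no result about the motif. A match describes these letters and does not show binding.

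As whole libraries the 32 profiles were alike in total: FPKM summed to between 332648 and 395945, 10551 to 10970 genes reached 1 FPKM, and replicate pairs gave r = 0.986 to 0.996 over genes. Read counts were not used here, so depth is unknown. The myeloid markers MPO, KIT, CD33, ANPEP, RUNX1, RUNX1T1, SPI1 and PTPRC were above 1 FPKM in every library, while CD34 was at 63.9 to 245 FPKM in Kasumi-1 and 0.117 to 4.64 FPKM in SKNO-1. Summed T cell markers were at most 0.743 FPKM and erythroid markers at most 0.307 FPKM, with HBB at 0 throughout. Of 7 markers of adherent cells, EPCAM stood at 61.0 to 83.5 FPKM in Kasumi-1 and at most 0.219 FPKM in SKNO-1, and the other 6 were at most 0.197 FPKM. In the deposited sample table the lines of the 16 libraries at 72 h are exchanged. By the labels' titles, used here, each correlated with 24 h libraries of its own line at r = 0.974 to 0.986 and with the other line at 0.848 to 0.870.

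The clustered histone genes made up a small part of the measured RNA, and few of them were clearly detected. Their FPKM (fragments normalised to transcript length and to the library's mapped fragments) summed to 18.9 to 123 per library (median 44.2), or 0.00503% to 0.0339% of all FPKM. Genes entered the comparisons when 2 or more of the 32 libraries reached 1 FPKM, and 19 of the 70 members did: 1 of 6 H1 genes, 4 of 17 H2A, 8 of 18 H2B, 6 of 15 H4 and 0 of 14 H3. By cluster these were 11 of 55 in HIST1, 7 of 11 in HIST2, 0 of 3 in HIST3 and the single HIST4 gene. HIST4H4 and HIST1H2BN passed only through inhibitor libraries (4 and 2 of them at 1 FPKM or more), so their selection favoured a difference, and the other 17 would have passed on the control libraries alone. The highest means over the 32 libraries, per length, were HIST1H2BK at 10.6 FPKM, HIST1H2AC at 5.39, HIST2H2AA4 at 3.89, HIST1H1C at 3.67, HIST2H2AA3 at 2.75 and HIST2H4A at 2.73 FPKM.

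**Figure D1:**
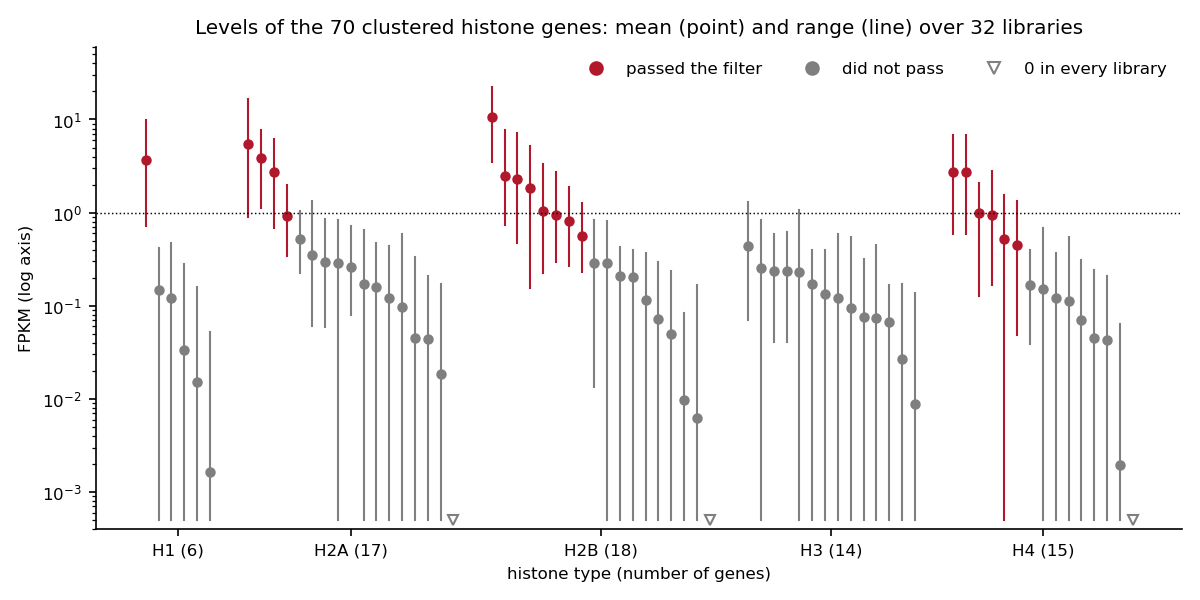
Mean FPKM (point, log axis) and range (line) of each of the 70 genes over 32 libraries, ordered by mean within its histone type, with 1 FPKM dotted. The 19 genes that passed the filter (red) belong to H1, H2A, H2B and H4, no H3 gene has a mean above 0.442 FPKM, and 3 genes (open triangles) are at 0 in every library.

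The central comparison sets the 4 RN-1 and GSK690 libraries against the 4 DMSO and GSK690* libraries of a line and time. All changes below are from limma on log2(FPKM + 1), a scale that understates the change of low genes, with p adjusted over all genes tested, and rose or fell means an adjusted p under 0.05. Among the 19 tested members 6 rose in Kasumi-1 at 24 h, 8 in Kasumi-1 at 72 h, 8 in SKNO-1 at 24 h and 11 in SKNO-1 at 72 h, where 9.69%, 13%, 5.64% and 6.91% of all genes tested rose. None fell in any set, where 11.2%, 12.7%, 3.44% and 4.16% of all genes fell. HIST2H4A and HIST2H4B, copies that are 1 measurement rather than 2, both rose in all 4 sets. These and all later counts of members include both. Counts at an unadjusted p under 0.05, in either direction, were 10, 9, 11 and 14 of 19. The share of all genes at that threshold is not given here. This and every later count at an unadjusted p is therefore no result about the members. Over the 17 members that pass the filter on the control libraries alone, 6, 7, 7 and 9 rose and 0 fell (8, 8, 9 and 12 at an unadjusted p under 0.05), since HIST4H4 is among the calls in 3 sets and HIST1H2BN in SKNO-1 at 72 h. Median changes of the 19 were log2 0.26, 0.26, 0.45 and 0.58 in the same order, beside -0.01, -0.02, -0.02 and -0.02 over all genes tested. Libraries scaled by the median of ratios gave 7, 8, 10 and 11 members up and 0 down, with 12%, 14.8%, 6.98% and 7.56% of all genes up and 8.56%, 10.6%, 2.3% and 3.21% down.

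The SKNO-1 count at 24 h depended on single libraries and on the setting. All 8 called members passed with a pseudocount of 0.1, quantile normalization or scaling by the median of ratios. The settings given next left fewer. Members summed to 100.5 and 101 FPKM in replicate 1 of RN-1 and GSK690 and to 53.3 and 60.1 FPKM in replicate 2, where the 4 controls summed to 37.4 to 57.1 FPKM. In the same libraries the 9 myeloid blast markers summed to 1842 and 1613 FPKM in replicate 1. In replicate 2 the sums were 2945 and 3187 FPKM, against 2482 to 2903 FPKM in controls. These sums are mostly MPO, at 1218 to 2816 FPKM in SKNO-1. Of the 9 markers 2 rose and 1 fell in this set (median log2 0.06), and their part in the result was not tested. The count of 8 became 1 without GSK690 replicate 1, 3 without RN-1 replicate 1, 5 without GSK690* replicate 2 and 1 with both inhibitors at replicate 2 only, a choice made after seeing the data, in which HIST4H4 alone passed. That last setting kept the replicate 1 controls, so its inhibitor and control libraries were not matched by replicate number. Within replicate 2 the members summed to 53.3 FPKM with RN-1 and 41.6 FPKM with DMSO. For GSK690 and GSK690* these sums were 60.1 and 37.4 FPKM. With limma run on the SKNO-1 libraries at 24 h only, 0 passed, and 4 did when they were treated as 2 groups of 4. In Kasumi-1 at 24 h the count of 6 was 3 without DMSO replicate 1, GSK690* replicate 1, RN-1 replicate 2 or GSK690 replicate 2. In SKNO-1 at 72 h the count of 11 was 7 without DMSO replicate 1, RN-1 replicate 2 or GSK690 replicate 2, and 4 with limma run on that set only. The Kasumi-1 count at 72 h was 7 or 8 whichever library was left out. Of the 8 members called in SKNO-1 at 24 h, none passed with limma run on that set only (adjusted p = 0.0688 to 0.172), and the 7 other than HIST4H4 had adjusted p = 0.238 to 0.504 with both inhibitors at replicate 2 only. This holds for each SKNO-1 call at 24 h named below. The prefix of the library names is 1 and the same for all 24 h libraries and another for all 8 Kasumi-1 libraries at 72 h, so that prefix and time cannot be told apart. In SKNO-1 at 72 h DMSO replicate 1 and RN-1 replicate 1 carry the Kasumi-1 prefix and the other 6 libraries another, so that prefix runs largely with line at 72 h. Those 2 had the lowest member sums of their sides (46.7 and 82.2 FPKM), and with the prefix as a term 11 members rose there, as without it.

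Summed over all 70 members, inhibitor and control libraries were apart in 3 sets. In Kasumi-1 the sum was 18.9 to 24.6 FPKM in controls and 27.2 to 41.0 FPKM with the inhibitors at 24 h, and 22.8 to 27.5 and 42.0 to 49.5 FPKM at 72 h. In SKNO-1 at 72 h it was 46.7 to 73.8 FPKM in controls and 82.2 to 123 FPKM with the inhibitors, and at 24 h the ranges overlapped (37.4 to 57.1 and 53.3 to 101 FPKM). Taken gene by gene, the 4 inhibitor libraries all lay above the 4 controls in 6 and 8 of 19 tested members in Kasumi-1 at 24 and 72 h, and in 6 and 10 in SKNO-1, where 14.4%, 15.6%, 6.8% and 8.57% of all genes did so. Over the 17 members that pass on the controls alone these numbers were 5 and 7 in Kasumi-1 and 5 and 8 in SKNO-1. The copies HIST2H4A and HIST2H4B are both counted, each with its sides apart in 3 sets. In RNA from whole cultures, a different share of cells that express a gene and a different amount of its RNA per cell cannot be told apart.

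**Figure D2:**
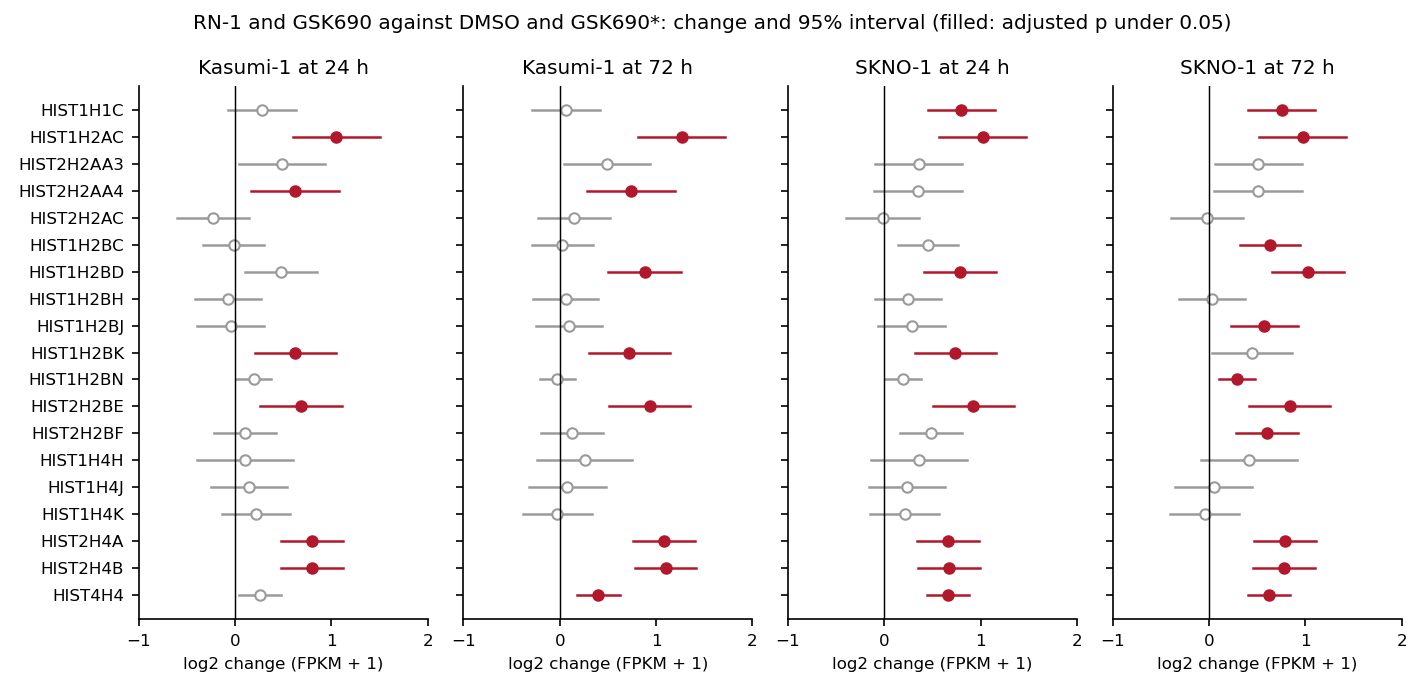
Log2 change (point) and 95% interval (line) of each of the 19 tested members, inhibitors against controls, on the log2(FPKM + 1) scale, by histone type, with filled red points at an adjusted p under 0.05. HIST1H2AC, HIST2H2BE, HIST2H4A and HIST2H4B are filled in all 4 panels, and no member is called lower in any.

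Among linker histone genes HIST1H1C (H1.2; chromosome 6, 26055967 to 26056699, hg19) was the single member tested, and the other 5 H1 genes had means of at most 0.147 FPKM. HIST1H1C in Kasumi-1 at 24 h stood at 0.720 and 0.718 FPKM with DMSO, 0.777 and 1.36 FPKM with GSK690*, 1.11 and 1.31 FPKM with RN-1 and 1.22 and 1.48 FPKM with GSK690. HIST1H1C in Kasumi-1 at 72 h stood at 1.51 and 1.75 FPKM with DMSO, 1.12 and 0.880 FPKM with GSK690*, 2.13 and 1.34 FPKM with RN-1 and 1.13 and 1.10 FPKM with GSK690. The inhibitor and control values overlap at both times in Kasumi-1, and neither change passed (log2 0.28, adjusted p = 0.264, and log2 0.06, adjusted p = 0.826). HIST1H1C in SKNO-1 at 24 h stood at 2.77 and 3.33 FPKM with DMSO, 4.58 and 3.15 FPKM with GSK690*, 9.04 and 4.76 FPKM with RN-1 and 9.29 and 4.83 FPKM with GSK690. HIST1H1C in SKNO-1 at 72 h stood at 3.79 and 5.09 FPKM with DMSO, 5.09 and 5.87 FPKM with GSK690*, 7.65 and 9.19 FPKM with RN-1 and 9.81 and 9.40 FPKM with GSK690. In SKNO-1 every inhibitor library lay above every control at both times, with replicate 1 of each inhibitor near 9 FPKM at 24 h. HIST1H1C rose there by log2 0.80 ± 0.17 (SE), adjusted p = 0.00444 at 24 h, and by log2 0.75 ± 0.17 (SE), adjusted p = 0.0048 at 72 h. The 24 h call ended with both inhibitors at replicate 2 only (log2 0.39, adjusted p = 0.252). The difference of the change between the lines did not pass (log2 -0.52, adjusted p = 0.46 at 24 h, and log2 -0.69, adjusted p = 0.133 at 72 h).

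HIST1H2AC, a replication-dependent H2A gene (chromosome 6, 26124372 to 26139344, hg19), had the highest change in 3 of the 4 sets. HIST1H2AC in Kasumi-1 at 24 h stood at 1.24 and 0.903 FPKM with DMSO, 1.28 and 1.33 FPKM with GSK690*, 2.60 and 3.91 FPKM with RN-1 and 3.04 and 4.84 FPKM with GSK690. HIST1H2AC in Kasumi-1 at 72 h stood at 1.12 and 1.46 FPKM with DMSO, 0.975 and 1.36 FPKM with GSK690*, 4.71 and 4.25 FPKM with RN-1 and 3.62 and 4.89 FPKM with GSK690. All inhibitor libraries lay above all controls at both times, at 3.03 and 3.55 times the control mean. The gene rose by log2 1.05 ± 0.22 (SE), adjusted p = 0.00174 at 24 h, and by log2 1.27 ± 0.22 (SE), adjusted p = 0.00019 at 72 h, and kept both calls under all 16 alternatives. HIST1H2AC in SKNO-1 at 24 h stood at 4.01 and 3.44 FPKM with DMSO, 5.65 and 3.46 FPKM with GSK690*, 11.9 and 5.70 FPKM with RN-1 and 14.3 and 7.47 FPKM with GSK690. HIST1H2AC in SKNO-1 at 72 h stood at 4.13 and 6.41 FPKM with DMSO, 5.49 and 8.09 FPKM with GSK690*, 9.44 and 13.5 FPKM with RN-1 and 11.4 and 16.6 FPKM with GSK690. The sides were again apart, at 2.38 and 2.12 times the control mean, although RN-1 replicate 2 at 24 h was near the highest control. HIST1H2AC rose in SKNO-1 by log2 1.02 ± 0.22 (SE), adjusted p = 0.0047 at 24 h, and by log2 0.97 ± 0.22 (SE), adjusted p = 0.00476 at 72 h.

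The other tested H2A genes lie in the HIST2 cluster on chromosome 1. HIST2H2AA3 and HIST2H2AA4 are near-identical copies, their values correlated over the 32 libraries at r = 0.989, and how reads were shared between them is uncertain. HIST2H2AA4 in Kasumi-1 at 24 h stood at 1.21 and 1.61 FPKM with DMSO, 1.12 and 2.16 FPKM with GSK690*, 1.99 and 3.43 FPKM with RN-1 and 2.87 and 3.29 FPKM with GSK690. HIST2H2AA4 in Kasumi-1 at 72 h stood at 1.42 and 1.55 FPKM with DMSO, 1.64 and 2.16 FPKM with GSK690*, 4.52 and 2.53 FPKM with RN-1 and 3.55 and 3.57 FPKM with GSK690. The sides overlapped at 24 h, where RN-1 replicate 1 lay below GSK690* replicate 2, and were apart at 72 h. HIST2H2AA4 rose by log2 0.63 ± 0.22 (SE), adjusted p = 0.0468 at 24 h, and by log2 0.74 ± 0.22 (SE), adjusted p = 0.016 at 72 h. The 24 h call ended in 9 of 16 alternatives. In SKNO-1 its changes of log2 0.35 and 0.50 did not pass (adjusted p = 0.356 and 0.145), and HIST2H2AA3 passed in no set (log2 0.36 to 0.51, adjusted p = 0.1 to 0.333). HIST2H2AC was at 0.944 ± 0.214 FPKM in controls and 0.660 ± 0.175 FPKM with the inhibitors in Kasumi-1 at 24 h (mean ± SD, n = 4 libraries, as for all levels below) and at 1.4 ± 0.565 FPKM in controls and 1.33 ± 0.223 FPKM with the inhibitors in SKNO-1 at 72 h, and its changes of log2 -0.23 to 0.15 passed nowhere.

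**Figure D3:**
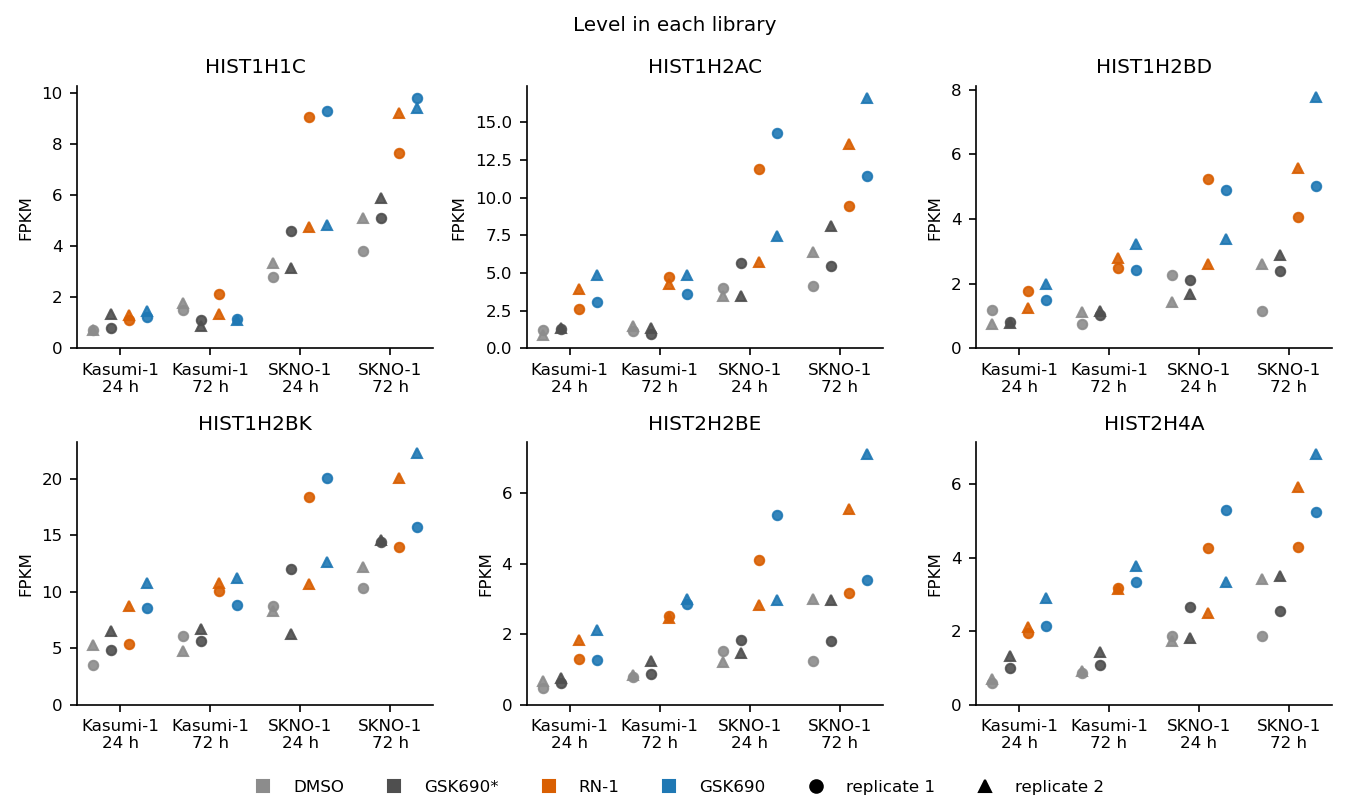
FPKM in every library (linear axes from 0) for 6 members, by line and time, with colour for the agent and shape for the replicate. In Kasumi-1 the orange and blue points of HIST1H2AC, HIST2H2BE and HIST2H4A lie above the grey ones, and in SKNO-1 at 24 h replicate 1 of both inhibitors is the higher one for all 6 genes.

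HIST1H2BK (chromosome 6, 27106072 to 27114619, hg19), an H2B gene, had the highest level of all members. HIST1H2BK in Kasumi-1 at 24 h stood at 3.47 and 5.28 FPKM with DMSO, 4.79 and 6.54 FPKM with GSK690*, 5.39 and 8.70 FPKM with RN-1 and 8.51 and 10.8 FPKM with GSK690. HIST1H2BK in Kasumi-1 at 72 h stood at 6.05 and 4.77 FPKM with DMSO, 5.64 and 6.68 FPKM with GSK690*, 10.0 and 10.7 FPKM with RN-1 and 8.84 and 11.2 FPKM with GSK690. At 24 h RN-1 replicate 1 lay among the controls, and at 72 h the sides were apart. HIST1H2BK rose by log2 0.63 ± 0.20 (SE), adjusted p = 0.0313 at 24 h, and by log2 0.72 ± 0.20 (SE), adjusted p = 0.011 at 72 h. The 24 h call ended in 5 of 16 alternatives and the 72 h call in 1 of 16. HIST1H2BK in SKNO-1 at 24 h stood at 8.71 and 8.26 FPKM with DMSO, 12 and 6.22 FPKM with GSK690*, 18.4 and 10.7 FPKM with RN-1 and 20.1 and 12.6 FPKM with GSK690. HIST1H2BK in SKNO-1 at 72 h stood at 10.4 and 12.1 FPKM with DMSO, 14.4 and 14.6 FPKM with GSK690*, 14 and 20.0 FPKM with RN-1 and 15.7 and 22.3 FPKM with GSK690. Both SKNO-1 sets overlap, through GSK690* replicate 1 at 24 h and both GSK690* libraries at 72 h. It rose at 24 h by log2 0.74 ± 0.20 (SE), adjusted p = 0.0254, and its change at 72 h did not pass (log2 0.44 ± 0.20 (SE), adjusted p = 0.162). That 24 h call ended in 10 of 17 alternatives. The locus overlaps that of HIST1H4I, which averaged 0.167 FPKM and was not tested.

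HIST1H2BD (chromosome 6, 26158348 to 26171577, hg19) is a further H2B gene. HIST1H2BD in Kasumi-1 at 24 h stood at 1.2 and 0.740 FPKM with DMSO, 0.823 and 0.774 FPKM with GSK690*, 1.76 and 1.26 FPKM with RN-1 and 1.49 and 1.99 FPKM with GSK690. HIST1H2BD in Kasumi-1 at 72 h stood at 0.758 and 1.13 FPKM with DMSO, 1.03 and 1.16 FPKM with GSK690*, 2.47 and 2.80 FPKM with RN-1 and 2.41 and 3.21 FPKM with GSK690. The sides did not overlap at either time, though RN-1 replicate 2 and DMSO replicate 1 nearly met at 24 h. The 24 h change did not pass (log2 0.48 ± 0.18 (SE), adjusted p = 0.0644), and the gene rose at 72 h (log2 0.88 ± 0.18 (SE), adjusted p = 0.0011). HIST1H2BD in SKNO-1 at 24 h stood at 2.26 and 1.43 FPKM with DMSO, 2.11 and 1.67 FPKM with GSK690*, 5.22 and 2.61 FPKM with RN-1 and 4.89 and 3.39 FPKM with GSK690. HIST1H2BD in SKNO-1 at 72 h stood at 1.16 and 2.61 FPKM with DMSO, 2.38 and 2.89 FPKM with GSK690*, 4.08 and 5.59 FPKM with RN-1 and 5.02 and 7.76 FPKM with GSK690. In both SKNO-1 sets the inhibitor libraries lay above the controls. HIST1H2BD rose by log2 0.79 ± 0.18 (SE), adjusted p = 0.00813 at 24 h, and by log2 1.03 ± 0.18 (SE), adjusted p = 0.000565 at 72 h, the highest change of that set.

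HIST2H2BE (chromosome 1, 149856009 to 149858232, hg19), the H2B gene whose start region is shown above, rose in all 4 sets. HIST2H2BE in Kasumi-1 at 24 h stood at 0.474 and 0.668 FPKM with DMSO, 0.600 and 0.742 FPKM with GSK690*, 1.29 and 1.83 FPKM with RN-1 and 1.28 and 2.10 FPKM with GSK690. HIST2H2BE in Kasumi-1 at 72 h stood at 0.790 and 0.851 FPKM with DMSO, 0.874 and 1.25 FPKM with GSK690*, 2.52 and 2.45 FPKM with RN-1 and 2.85 and 2.99 FPKM with GSK690. Each inhibitor library exceeded each control, at 2.62 and 2.87 times the control mean. The changes were log2 0.68 ± 0.20 (SE), adjusted p = 0.0201, at 24 h, and log2 0.93 ± 0.20 (SE), adjusted p = 0.0018, at 72 h, and the 24 h call ended in 4 of 16 alternatives. HIST2H2BE in SKNO-1 at 24 h stood at 1.51 and 1.2 FPKM with DMSO, 1.84 and 1.46 FPKM with GSK690*, 4.11 and 2.83 FPKM with RN-1 and 5.37 and 2.96 FPKM with GSK690. HIST2H2BE in SKNO-1 at 72 h stood at 1.22 and 3.0 FPKM with DMSO, 1.81 and 2.97 FPKM with GSK690*, 3.17 and 5.56 FPKM with RN-1 and 3.54 and 7.11 FPKM with GSK690. The sides were apart in SKNO-1 too, with the lowest inhibitor libraries at 72 h (3.17 and 3.54 FPKM) close to the highest controls (3.0 and 2.97 FPKM). HIST2H2BE rose there by log2 0.92 ± 0.20 (SE), adjusted p = 0.0061 at 24 h, and by log2 0.84 ± 0.20 (SE), adjusted p = 0.00901 at 72 h. The 24 h call ended with limma run on that set only and with both inhibitors at replicate 2 only (adjusted p = 0.238), and the 72 h call ended in 6 of 17 alternatives.

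The remaining 5 tested H2B genes passed in SKNO-1 at 72 h or in no set. HIST1H2BC, HIST1H2BJ, HIST1H2BN and HIST2H2BF rose in that set by log2 0.64, 0.58, 0.29 and 0.60 (adjusted p = 0.00763, 0.0278, 0.0387 and 0.0147) and passed in no other. HIST1H2BN reached the filter only through 2 inhibitor libraries and no control library, so its selection favoured a difference, and its call ended in 12 of 17 alternatives. The HIST1H2BJ call ended in 10 of 17 and the HIST2H2BF call in 6 of 17, while that of HIST1H2BC held in all 17. Inhibitor and control values of HIST1H2BJ overlapped in SKNO-1 at 72 h. HIST1H2BC there was at 1.30 ± 0.0770 FPKM in controls and 2.60 ± 0.524 FPKM with the inhibitors, with the sides apart. HIST2H2BF overlaps the locus of FCGR1A, an Fc receptor gene that went from 16.0 ± 3.16 to 31.2 ± 2.04 FPKM in SKNO-1 at 72 h (log2 0.94, adjusted p = 2.63e-06), and how their reads were divided is uncertain. HIST1H2BH passed in no set (log2 -0.07 to 0.25), at 3.77 ± 0.549 FPKM in controls and 3.93 ± 0.943 FPKM with the inhibitors in SKNO-1 at 72 h.

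For H4, HIST2H4A and HIST2H4B on chromosome 1 (149804220 to 149811339 and 149825606 to 149832714, hg19) are copies whose values lay within 5% of each other in 31 of 32 libraries, so they are 1 measurement rather than 2. HIST2H4A in Kasumi-1 at 24 h stood at 0.583 and 0.689 FPKM with DMSO, 0.982 and 1.32 FPKM with GSK690*, 1.94 and 2.11 FPKM with RN-1 and 2.14 and 2.91 FPKM with GSK690. HIST2H4A in Kasumi-1 at 72 h stood at 0.851 and 0.908 FPKM with DMSO, 1.08 and 1.42 FPKM with GSK690*, 3.18 and 3.14 FPKM with RN-1 and 3.33 and 3.78 FPKM with GSK690. In Kasumi-1 all inhibitor libraries lay above all controls. HIST2H4A rose by log2 0.80 ± 0.15 (SE), adjusted p = 0.00103 at 24 h, and by log2 1.08 ± 0.15 (SE), adjusted p = 2.59e-05 at 72 h, and kept both calls under all 16 alternatives. HIST2H4A in SKNO-1 at 24 h stood at 1.86 and 1.72 FPKM with DMSO, 2.65 and 1.80 FPKM with GSK690*, 4.27 and 2.49 FPKM with RN-1 and 5.30 and 3.34 FPKM with GSK690. HIST2H4A in SKNO-1 at 72 h stood at 1.87 and 3.43 FPKM with DMSO, 2.55 and 3.5 FPKM with GSK690*, 4.29 and 5.92 FPKM with RN-1 and 5.25 and 6.84 FPKM with GSK690. In SKNO-1 the sides overlapped at 24 h, where RN-1 replicate 2 stood below GSK690* replicate 1, and were apart at 72 h. HIST2H4A rose there by log2 0.66 ± 0.15 (SE), adjusted p = 0.0093 at 24 h, and by log2 0.79 ± 0.15 (SE), adjusted p = 0.00169 at 72 h. The locus of HIST2H4A overlaps that of HIST2H3C, which averaged 0.235 FPKM.

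HIST4H4, the single gene of the HIST4 cluster (chromosome 12, 14920932 to 14924065, hg19), was low but separated in every set. HIST4H4 in Kasumi-1 at 24 h stood at 0.0485 and 0.141 FPKM with DMSO, 0.138 and 0.152 FPKM with GSK690*, 0.341 and 0.326 FPKM with RN-1 and 0.370 and 0.324 FPKM with GSK690. HIST4H4 in Kasumi-1 at 72 h stood at 0.0863 and 0.182 FPKM with DMSO, 0.138 and 0.228 FPKM with GSK690*, 0.352 and 0.533 FPKM with RN-1 and 0.590 and 0.661 FPKM with GSK690. Every inhibitor library was above every control at both times. HIST4H4 in SKNO-1 at 24 h stood at 0.223 and 0.316 FPKM with DMSO, 0.131 and 0.469 FPKM with GSK690*, 1.18 and 0.870 FPKM with RN-1 and 1.34 and 0.751 FPKM with GSK690. HIST4H4 in SKNO-1 at 72 h stood at 0.156 and 0.252 FPKM with DMSO, 0.145 and 0.371 FPKM with GSK690*, 0.808 and 1.00 FPKM with RN-1 and 1.14 and 0.653 FPKM with GSK690. SKNO-1 again showed no overlap, at 3.64 and 3.90 times the control mean. It did not pass in Kasumi-1 at 24 h (log2 0.26 ± 0.11 (SE), adjusted p = 0.0868), and it rose by log2 0.40 ± 0.11 (SE), adjusted p = 0.0078 at 72 h, by log2 0.66 ± 0.11 (SE), adjusted p = 0.000314 in SKNO-1 at 24 h, and by log2 0.62 ± 0.11 (SE), adjusted p = 0.000387 at 72 h. As said, this gene reached the filter only through inhibitor libraries. The 3 other H4 genes tested, HIST1H4H, HIST1H4J and HIST1H4K, passed in no set, with log2 changes of -0.04 to 0.41.

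By cluster, the HIST2 genes rose in 4, 4, 3 and 4 of 7 tested members over the 4 sets. The HIST1 genes rose in 2, 3, 4 and 6 of 11, and each near-identical copy is counted. For these and the next counts, 9.69%, 13%, 5.64% and 6.91% of all genes tested rose. The 2 of 11 in Kasumi-1 at 24 h is thus not far from that share. The HIST1 count in SKNO-1 at 72 h includes HIST1H2BN, which passed the filter only through inhibitor libraries. Of the 6 members listed as known to give polyadenylated mRNA (HIST1H1C, HIST1H2AC, HIST1H2BC, HIST1H2BD, HIST1H2BK and HIST2H2BE), 3, 4, 5 and 5 rose and 0 fell (medians log2 0.55, 0.80, 0.79 and 0.80). Among the 13 other tested members 3, 4, 3 and 6 rose (medians 0.19, 0.15, 0.35 and 0.50), and 3, 3, 2 and 4 of 11 without HIST4H4 and HIST1H2BN. That list was drawn up with earlier results of these data known, so it is no independent evidence. The loci in the deposited annotation exceeded 1000 bases in 11 of the 13 members that rose in at least 1 set, in 1 of the 6 tested members that rose in none and in 8 of the 51 that were not tested, a property looked at after the values were seen.

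Some histone genes start back to back, and the calls differed within both pairs that could be tested. Among members with a RefSeq entry, 9 pairs start within 500 bases of each other on opposite strands, 194 to 248 bases apart, and both genes were tested in 2 of them. HIST2H2BE and HIST2H2AC start 236 bases apart and share the window printed above, and HIST2H2BE rose by log2 0.68, 0.93, 0.92 and 0.84 while HIST2H2AC had -0.23, 0.15, -0.02 and -0.02. HIST1H2AC and HIST1H2BC start 246 bases apart, and HIST1H2AC rose by log2 1.05, 1.27, 1.02 and 0.97 while HIST1H2BC had -0.02, 0.03 and 0.45, which did not pass, and 0.64, which did. The difference within a pair was not tested.

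**Figure D4:**
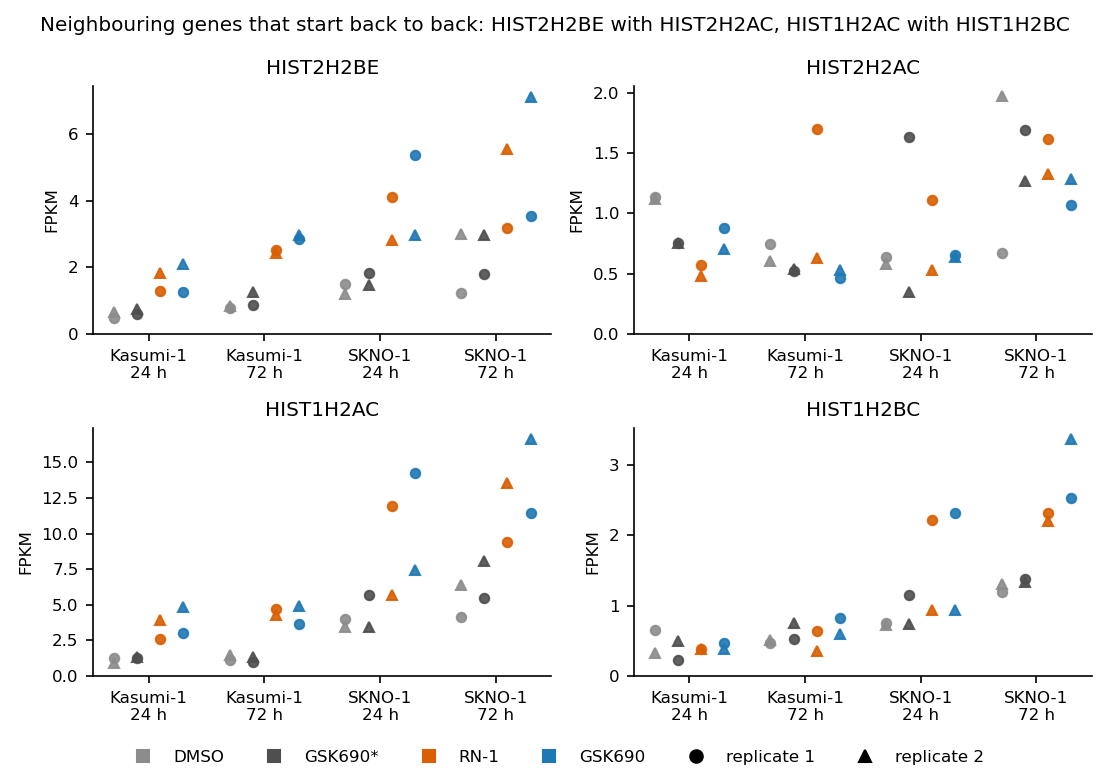
FPKM in every library (linear axes from 0) for the 2 tested pairs that start back to back, with colour for the agent and shape for the replicate. HIST2H2BE is higher with RN-1 and GSK690 in all 4 sets while HIST2H2AC overlaps between agents, and HIST1H2BC separates in SKNO-1 at 72 h only.

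Each inhibitor was also set against its own control, RN-1 against DMSO and GSK690 against its isomer GSK690*, 2 comparisons that share no library. For RN-1, 3, 5, 2 and 2 of 19 members rose over the sets in the order used above, where 5.47%, 7.44%, 1.82% and 2.94% of all genes rose. With GSK690, 0, 5, 1 and 4 rose, where 2.52%, 6.02%, 1.52% and 2.53% of all genes rose, and the 0 in Kasumi-1 at 24 h stood beside 7 members at an unadjusted p under 0.05. HIST1H2AC rose with RN-1 by log2 1.03 and 1.26 in Kasumi-1 (adjusted p = 0.0392 and 0.00886). With GSK690 it had log2 1.07, which did not pass at 24 h (adjusted p = 0.052), and it rose by 1.27 at 72 h (adjusted p = 0.0109). In SKNO-1, HIST1H2BD at 72 h and HIST4H4 at both times rose with either compound: HIST1H2BD by log2 1.05 and 1.00, and HIST4H4 by 0.67 and 0.65 at 24 h and 0.66 and 0.59 at 72 h. HIST4H4 was selected through inhibitor libraries only, and over the 17 members that pass on the controls alone 3, 5, 1 and 1 rose with RN-1 and 0, 5, 0 and 3 with GSK690 by limma, with 4, 7, 10 and 9 and 7, 7, 8 and 9 at an unadjusted p under 0.05. With 1 library left out the counts ran from 0 to 3, 2 to 5, 0 to 8 and 0 to 5 for RN-1 and were 0, 0 to 5, 0 to 6 and 0 to 4 for GSK690, and 4, 2, 4 and 3 of the 8 libraries moved the RN-1 count by over 1.5 times and 0, 4, 5 and 3 the GSK690 count.

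**Figure D5:**
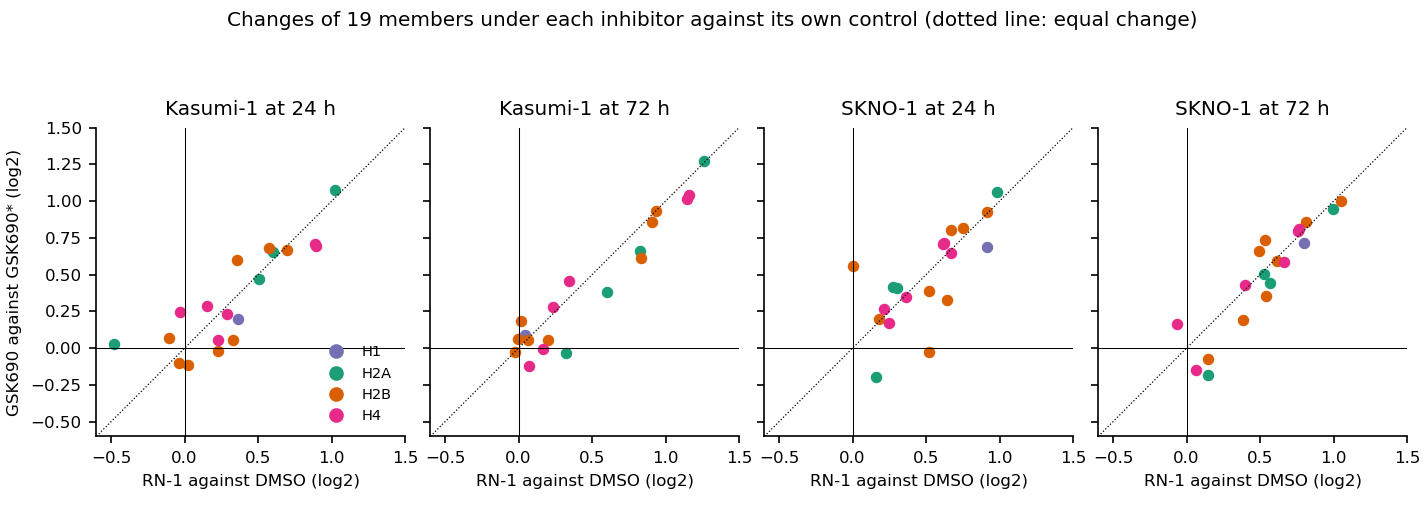
Log2 change of each of the 19 tested members with GSK690 against GSK690* (vertical) plotted on that with RN-1 against DMSO (horizontal), 1 panel per line and time, with colour for the histone type. The highest members lie along the dotted line of equal change, at log2 0.95 to 1.27 for HIST1H2AC.

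No difference between the 2 inhibitors, or between the isomer and DMSO, was detected in any member. RN-1 against GSK690 called 0 of 19 members in each of the 4 sets (0, 0, 1 and 0 at an unadjusted p under 0.05), where limma called 0%, 0.00841%, 0% and 0% of all genes. The differences ran from log2 -0.54 (HIST1H2BJ in SKNO-1 at 24 h, 95% interval -1.03 to -0.05, adjusted p = 0.923) to 0.49 (HIST2H2AC in Kasumi-1 at 72 h, interval -0.05 to 1.02, adjusted p = 0.676). GSK690* against DMSO called 0 of 19 in each set by limma, with 0 at an unadjusted p under 0.05 and 0% of all genes, and differences of log2 -0.40 to 0.39. Over the 19 members the 95% intervals reached from -1.03 to 1.02 for the inhibitors and from -0.98 to 1.00 for the isomer, so differences of up to about that size remain possible. RN-1 is irreversible and GSK690 reversible, and GSK690 and GSK690* are isomers.

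The change at 72 h was compared with that at 24 h within a line, and the change in Kasumi-1 with that in SKNO-1. Limma called 0 of 19 members different between times in Kasumi-1 or in SKNO-1, with 0 and 0 at an unadjusted p under 0.05, where 0.202% and 0% of all genes passed. Between the lines it called 0 at 24 h and 0 at 72 h, with 3 and 4 at an unadjusted p under 0.05, where 1.12% and 3.47% of all genes passed. The largest difference in time was for HIST1H2BD in Kasumi-1 (log2 0.40, 95% interval -0.13 to 0.93), and the largest between lines was for HIST1H1C at 72 h (log2 -0.69, interval -1.19 to -0.19).

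The lines differed in level before any inhibitor. In the control libraries 14 of 19 members were lower in Kasumi-1 than in SKNO-1 at 24 h and 17 at 72 h. None was higher, and 38.2% and 38.2% of all genes were lower. Several members, among them HIST1H2BH, HIST1H4H and HIST1H4K, reached 1 FPKM in SKNO-1 libraries only. The filter therefore favoured a lower level in Kasumi-1 for these members, and the counts of 14 and 17 include such genes. HIST1H2AC stood at 1.19 ± 0.195 FPKM in Kasumi-1 and 4.14 ± 1.04 FPKM in SKNO-1 at 24 h (SD, n = 4), and at 1.23 ± 0.223 and 6.03 ± 1.66 FPKM at 72 h, the lowest log2 difference of that time (-1.63). HIST1H1C differed by log2 -1.23 and -1.37, and HIST1H2BH, which the inhibitors did not change detectably, by -1.02 and -1.51. With RN-1 or GSK690 at 72 h, HIST1H2AC in Kasumi-1 lay at 3.62 to 4.89 FPKM, a range that overlaps that of the SKNO-1 controls of that time (4.13 to 8.09 FPKM). HIST1H2BJ and HIST4H4 did not pass at either time (adjusted p = 0.0618 and 0.283 for the first, 0.112 and 0.486 for the second).

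The 51 members that were not tested include all 14 H3 genes. HIST1H3H, the highest of the H3 genes, averaged 0.442 FPKM, and HIST1H2AG, the highest of the 51, 0.523 FPKM. HIST1H3H in Kasumi-1 at 72 h stood at 0.276 and 0.0799 FPKM with DMSO, 0.276 and 0.477 FPKM with GSK690*, 0.377 and 0.336 FPKM with RN-1 and 0.462 and 0.569 FPKM with GSK690. HIST1H3H in SKNO-1 at 72 h stood at 0.425 and 0.668 FPKM with DMSO, 0.892 and 0.343 FPKM with GSK690*, 0.455 and 0.602 FPKM with RN-1 and 0.916 and 1.29 FPKM with GSK690. Inhibitor and control values of HIST1H3H overlap in both lines. HIST1H2AG, HIST1H3H, HIST1H2AE and HIST1H3C reached 1 FPKM in 1 library each, and HIST1H2AA, HIST1H2BA and HIST1H4G were listed at 0 in all. Summed over the 51, inhibitor and control libraries overlapped in all 4 sets, for example at 3.93 to 5.29 FPKM in controls and 4.94 to 6.83 FPKM with the inhibitors in Kasumi-1 at 72 h. In a fit without the filter, HIST1H2AG rose in SKNO-1 by log2 0.29 at 24 h and 0.30 at 72 h (adjusted p = 0.0414 and 0.0249), and HIST1H3E rose in Kasumi-1 at 72 h by 0.38 (adjusted p = 0.0141). HIST3H3, a testis histone, fell in that set by log2 -0.07 (adjusted p = 0.00787), but there it was at 0.136 and 0.0670 FPKM with GSK690* and listed at 0 in the other 6 libraries.

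NPAT, the coactivator of replication-dependent histone genes, fell in Kasumi-1 at 24 h from 7.35 ± 0.537 to 6.06 ± 0.393 FPKM (log2 -0.24, adjusted p = 0.0269) and passed in no other set. SLBP, which binds the stem-loop, fell there from 56.7 ± 2.85 to 45.8 ± 2.10 FPKM (log2 -0.30, adjusted p = 0.00402) and passed in no other set. Of 20 tested genes of histone mRNA transcription and 3′ end processing 8, 4, 3 and 1 fell and 0 rose, where 11.2%, 12.7%, 3.44% and 4.16% of all genes fell. Of 11 or 12 decay genes 2, 2, 1 and 1 fell and 0, 1, 0 and 1 rose, which is near the share over all genes. Of the processing genes 3, 3, 0 and 1 fell under the median of ratios, and 3, 4, 1 and 2 fell and 0, 1, 0 and 0 rose under quantile normalization. Among 24 histone chaperones 15, 8, 2 and 0 fell and 1, 1, 0 and 0 rose, with CHAF1B, a subunit of the chromatin assembly factor CAF-1, at log2 -0.53 and -0.39 in Kasumi-1.

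Genes of S phase and DNA replication, the phase in which most clustered histone genes are made, did not rise with the members. Of 35 tested, 31, 24, 10 and 2 fell and 0 rose in the 4 sets, with medians of log2 -0.40, -0.29, -0.20 and -0.12. Over all genes 11.2%, 12.7%, 3.44% and 4.16% fell, so that 2 of 35 in SKNO-1 at 72 h is near the background. MCM10, a replication initiation factor, fell in Kasumi-1 at 24 h from 26.7 ± 2.71 to 16.4 ± 1.45 FPKM, while the sum over clustered histone genes went from 21.2 ± 2.65 to 34.7 ± 5.81 FPKM. Under quantile normalization 30, 24, 8 and 1 fell, and under the median of ratios 31, 23, 7 and 1. The part of the cell cycle in the members' changes was not tested.

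Of 12 tested histone genes outside the clusters 3, 1, 1 and 1 fell and 0 rose. Under the median of ratios 3, 0, 0 and 1 fell. Against 11.2%, 12.7%, 3.44% and 4.16% of all genes, 1 of 12 is near the background. H2AFZ, which encodes the variant H2A.Z, fell in all 4 sets of the main scaling, from 382 ± 26.7 to 274 ± 12.6 FPKM in Kasumi-1 at 24 h (log2 -0.47, adjusted p = 3.82e-05) and by 0.20, 0.22 and 0.24 on the log2 scale in the other sets. CENPA, the centromeric H3 variant, and H2AFV fell in Kasumi-1 at 24 h (log2 -0.50 and -0.29).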

How the data were processed

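RNA-seq of 32 cultures was deposited as 1 table of FPKM per gene, made by the authors with TopHat 1.4.1 and Cufflinks on hg19, per the submitters' processing notes. The library type, strand setting and annotation release are not given in the sources used here, so reads of overlapping or near-identical genes may be shared between them. Libraries were assigned to groups by their titles and library names in the labels, and the labels call the replicates biological. Values without counts carry no depth, and no interval of counting error was given.

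The 11890 genes that reached 1 FPKM in 2 or more libraries were analysed as log2(FPKM + 1) with limma 3.58.1 in R 4.3.3, with 16 group means, an intensity trend and Benjamini-Hochberg adjustment over all genes of a comparison, at a threshold of 0.05. Every comparison was computed in this 1 model. Intervals are at 95% and the scripts were tested on simulated data. Tables were handled with pandas 2.3.3 in Python 3.11.15. Alternatives were a pseudocount of 0.1, no filter, scaling by the median of ratios, quantile normalization, limma on each set of 8 libraries, 2 groups of 4, GSK690* left out, a replicate block, library name prefix as a term, and each library left out.

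Named members are the 6 highest and 4 lowest changes that passed in each set, the member of highest mean in each histone type, and HIST1H1C, HIST1H2AC, HIST1H2BD, HIST1H2BK and HIST2H2BE. From each other list up to 3 genes with the largest changes that passed, and NPAT and SLBP, could be named. Other members are named where a count or an overlap needs it. The members and the lists were chosen with earlier results of these data known. Start regions came from RefSeq (GRCh38.p14), matched by gene ID for 32 members and by a unique synonym for 29. All other coordinates are those of the deposited hg19 annotation.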

Additional observations from a re-analysis of the deposited data

Results flagged for a closer look

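In 9 of 152 groups of 4 libraries, 1 library stood so far from the other 3 that its gap exceeded Dixon's critical share of the range, and chance alone marks about 5% of such groups. GSK690* replicate 1 in SKNO-1 at 24 h was above the other controls for HIST2H4A (2.65 FPKM against 1.72 to 1.86), its copy HIST2H4B (2.61 FPKM against 1.72 to 1.87) and HIST1H2BC (1.15 FPKM against 0.730 to 0.751). RN-1 replicate 1 in SKNO-1 at 72 h had 5.14 FPKM of HIST2H2AA4, below the 7.59 to 7.80 FPKM of the other inhibitor libraries. RN-1 replicate 1 in Kasumi-1 at 72 h had 1.70 FPKM of HIST2H2AC against 0.467 to 0.630 FPKM. In Kasumi-1 at 24 h, DMSO replicate 1 was low for HIST4H4 (0.0485 FPKM against 0.138 to 0.152), GSK690* replicate 2 was high for HIST1H1C (1.36 FPKM against 0.718 to 0.777) and GSK690 replicate 1 was high for HIST1H2BC (0.464 FPKM against 0.379 to 0.385). GSK690* replicate 2 in Kasumi-1 at 72 h was low for HIST1H2BJ (0.308 FPKM against 0.596 to 0.645).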

How the results depend on the processing

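Counts of called members kept their direction except as given here, and the cause of each change was not tested. The share of all genes called under each setting is not given in this part. Its counts therefore show how the calls move with the setting and are no result about the members. Depth is unknown, and only 2 libraries per group limit the single comparisons. With limma on a set of 8 libraries only, inhibitors against controls gave 10 up and 1 down in Kasumi-1 at 24 h, and 0 and 4 up in SKNO-1 at 24 and 72 h, where 2 groups of 4 gave 10, 4 and 7. Both inhibitors at replicate 2 only left 1 in SKNO-1 at 24 h, and no filter gave 1 down in Kasumi-1 at 72 h. For RN-1 against DMSO, the set only gave 7 in Kasumi-1 at 24 h and 0 and 0 in SKNO-1 at 24 and 72 h, no filter gave 1 and 1 in SKNO-1, a pseudocount of 0.1 gave 1 at 24 h, quantile normalization gave 1 and the prefix term 4 at 72 h. For GSK690 against GSK690*, a pseudocount of 0.1, quantile normalization, the median of ratios and the set only each gave 3 in Kasumi-1 at 24 h, and quantile normalization gave 3 at 72 h there and 0 in SKNO-1 at 24 h. The set only gave 0 and 0 in SKNO-1, and at 72 h a pseudocount of 0.1 gave 0 and no filter 1. Controls of the lines at 72 h differed in 26 members with no filter.

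Leaving out 1 library gave ranges of 3 to 6 members up in Kasumi-1 at 24 h, 1 to 10 in SKNO-1 at 24 h and 7 to 12 at 72 h. For RN-1 the ranges were 0 to 3 and 2 to 5 in Kasumi-1 and 0 to 8 and 0 to 5 in SKNO-1, and for GSK690 0 to 5 in Kasumi-1 at 72 h and 0 to 6 and 0 to 4 in SKNO-1. The HIST1H1C log2 change, inhibitors and controls, Kasumi-1 at 72 h, which was not called, turned to -0.0779 with quantile normalization, -0.135 without GSK690* and -0.0396 without RN-1 replicate 1, the lowest of -0.0396 to 0.169 with 1 library left out.

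Same-numbered libraries deviated together: their correlations were 0.0432 to 0.697, and all 6 in a set were above 0.1 in 3 of 4 sets. Names of libraries run in sequence within a replicate number of a set, except in replicate 1 of SKNO-1 at 72 h, where the prefix changes. In SKNO-1 at 24 h the names of replicate 1 and replicate 2 stand apart, with those of Kasumi-1 at 24 h between them. The labels do not state that a number marks a shared batch, and with 2 numbers per group the pairing was not established. Inhibitor and control calls of the report are without the block. With the block, all 8 members called in SKNO-1 at 24 h passed (limma adjusted p = 8.35e-07 to 0.000375). A replicate block gave 6, 10 and 10 members for RN-1 in Kasumi-1 at 24 h and SKNO-1 at 24 and 72 h. It gave 6, 8, 8 and 9 for GSK690 over the 4 sets, and 3 for the difference between lines at 72 h. The share of all genes called with the block is not given here, so these counts too are no result about the members.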
